A study of Mus musculus with 74 samples.

Results

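H3K27ac was measured by ChIP-seq in livers of *Smrt* LKO mice, which lack the corepressor SMRT in the liver, and in livers of their WT controls. All regions of the deposited H3K27ac peak table with at least 1 tag in these libraries were taken, which gave 68800 of 68818 regions. The 6 libraries, 3 *Smrt* WT and 3 *Smrt* LKO, are among the 74 libraries of a mouse liver study of the corepressor subunits GPS2, NCOR and SMRT and of the nuclear receptor PPARα. The same table holds 3 *Ncor* WT and 3 *Ncor* LKO livers, which were used for contrast and share no library with the *Smrt* line. All 4 groups are labelled C57BL/6, were fed chow and were 8 to 12 weeks old. The lines were compared to ask whether loss of each subunit alters the mark at the same liver genes.

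The sources used here describe the *Smrt* LKO as a liver-specific knockout and give neither its Cre driver nor the deleted exons. Whole liver was used, so hepatocytes and other liver cells contribute to every value, and fewer cells of a type and less mark per cell cannot be told apart. Several immunoprecipitations were pooled into each library. The study calls its H3K27ac samples biological triplicates, and the labels do not name the animals, so that the p-values measure the spread between these samples.

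SMRT and NCOR, the latter encoded by *Ncor1*, are large scaffold proteins that nuclear receptors bind when no activating ligand is present. With GPS2, TBL1 and TBLR1 they form a complex that holds the histone deacetylase HDAC3, which removes acetyl groups from histones. H3K27ac, acetylation of lysine 27 on histone H3, marks active promoters and enhancers.

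Regions were between 501 and 117375 bp wide, with a median of 1394 bp. They are named by the gene with the nearest transcription start site (TSS), which does not make that gene the target. For 3 regions that the results turn on, 300 bp of the mm9 genome are shown, on the plus strand, with letters in capitals where a nuclear receptor half-site (AGGTCA, or TGACCT on the other strand) was found. The windows near *A530017D24Rik* (chr11:61675721-61676020) and *Scd1* (chr19:44490854-44491153) were centred on an NCOR peak of WT liver inside the region. The window near *Zfp287* (chr11:62515429-62515728) was centred on the region, which held no NCOR peak.
A530017D24Rik: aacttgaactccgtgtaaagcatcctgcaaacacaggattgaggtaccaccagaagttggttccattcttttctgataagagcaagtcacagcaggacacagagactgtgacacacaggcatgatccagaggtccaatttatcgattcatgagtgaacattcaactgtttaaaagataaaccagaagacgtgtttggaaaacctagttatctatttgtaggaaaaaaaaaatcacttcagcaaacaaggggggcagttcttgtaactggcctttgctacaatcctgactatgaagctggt
Zfp287: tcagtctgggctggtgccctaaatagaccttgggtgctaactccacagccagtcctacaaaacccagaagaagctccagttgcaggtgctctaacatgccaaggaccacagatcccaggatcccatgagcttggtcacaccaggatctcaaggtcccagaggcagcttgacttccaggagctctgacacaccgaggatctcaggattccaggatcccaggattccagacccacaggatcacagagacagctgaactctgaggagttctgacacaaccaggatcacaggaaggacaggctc
Scd1: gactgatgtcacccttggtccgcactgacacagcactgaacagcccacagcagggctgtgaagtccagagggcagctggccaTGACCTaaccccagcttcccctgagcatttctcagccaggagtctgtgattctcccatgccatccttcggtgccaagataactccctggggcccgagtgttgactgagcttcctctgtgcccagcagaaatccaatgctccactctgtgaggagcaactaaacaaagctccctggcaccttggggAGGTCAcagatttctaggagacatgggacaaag
The *Scd1* window held 2 half-sites, and the other windows held none of these letters. Such a half-site was present in 25.7% of 68745 windows of the same length over all regions on assembled chromosomes, and in 33.2% of the 29091 windows centred on an NCOR peak. None of the 3 windows overlapped an annotated exon.

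Libraries held 34.3 M, 40.8 M and 35 M uniquely mapped tags in WT livers, and 35.3 M, 39.2 M and 34.7 M in LKO livers. The share of tags inside the regions was 79.6% ± 1.25 over the WT libraries and 78.5% ± 0.502 over the LKO libraries (SD, n = 3 each). The difference did not pass an exact permutation test (two-sided p = 0.3, where 3 against 3 cannot go below 0.1). Libraries of a group differed beyond counting noise, with a chi-square per degree of freedom of 4.38 to 11.6 between pairs. WT replicate 3 stood apart: among 40775 regions with a mean of at least 50 tags, it lay more than 1 log2 from its group mean in 402, against 77 to 165 for the other libraries. Of 545 regions with a 4-fold range over the 6 libraries, it was the farthest library in 302. In 215 of these it lay nearer to the *Ncor* WT mean than to the mean of the other *Smrt* libraries. The same held in 23 of 35 and 32 of 65 regions for WT replicates 1 and 2, and in 35 of 71, 16 of 31 and 8 of 41 for the LKO replicates. These regions were chosen for distance from the other *Smrt* libraries, which favours such nearness. A likeness of WT replicate 3 to the *Ncor* line was not tested. At clock genes the tags within 10 kb of the TSS showed the same library apart, with 53.7 normalised tags (tags per 10000000 total tags of the library) at *Npas2* against 290 and 286 in the other WT livers, and 524 at *Per3* against 262 and 276. The main counts and the regions and lists most affected by this library are given with and without it.

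No region passed an adjusted p of 0.05 in edgeR's quasi-likelihood test with Benjamini-Hochberg adjustment over all 68800 regions (0% called), and the smallest adjusted p was 0.102. Without adjustment, 4079 regions (5.93%) had a p below 0.05, of which 2283 (3.32%) were higher and 1796 (2.61%) lower in *Smrt* LKO livers. A p below 0.001 was reached by 85 regions (0.124%), 62 of them higher. In 8176 regions (11.9%) the 3 LKO livers lay outside the WT range, above it in 3989 (5.8%) and below it in 4187 (6.09%). The median log2 fold change (LKO over WT) was 0.01. Without WT replicate 3, 2 regions passed the adjusted p, near *A530017D24Rik* and *Dlc1*. DESeq2 called 68 regions (0.0988%), 47 higher and 21 lower, and edgeR's likelihood ratio test called 90 (0.131%), with 61 regions called by both. Hence the number of called regions depended on the test.

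The lowest p of all regions belonged to an intergenic region near *A530017D24Rik*, annotated as a non-coding transcript (chr11:61673995-61677220). It held 50.5, 69.4 and 41.4 normalised tags in WT against 216, 215 and 189 in LKO livers. The 3 LKO livers lay close together and far above every WT liver. The log2 fold change was 1.94 (SE 0.18; adjusted p = 0.102), and the adjusted p was 0.0305 without WT replicate 2, 0.035 without WT replicate 3 and 0.00287 with the spread shared over all 12 libraries of the table. It stayed above 0.05 without WT replicate 1 (0.422), LKO replicate 1 (0.185), LKO replicate 2 (0.379) or LKO replicate 3 (0.467). A narrower region inside the gene (chr11:61678828-61681389) was also higher in every LKO liver, with 7.88, 10.6 and 11.1 tags in WT against 25.7, 36.2 and 31.4 in LKO livers (log2 fold change 1.65, SE 0.22, adjusted p = 0.378). In the *Ncor* line the first region held 67.3 ± 9.81 (SD, n = 3) in its WT livers and 80.9 ± 16.5 (SD, n = 3) where *Ncor* was deleted, and these groups overlapped.

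Among regions with a mean of at least 50 tags whose groups did not overlap, the 10 largest log2 fold changes upward ran from 1.39 to 2.78, and both *A530017D24Rik* regions were among them. The largest lay near *Nlrp1b*, an inflammasome sensor, with 0, 12.5 and 0 normalised tags in WT against 52.3, 26.0 and 13.5 in LKO livers. Here 2 WT livers had no tag and the LKO livers were far apart, while all 6 livers of the *Ncor* line held 25.7 to 33.2. An intronic region of *Dlc1*, which encodes a GTPase-activating protein, held 2.04, 1.72 and 16.3 in WT against 38.5, 35.7 and 39.2 in LKO livers. WT replicate 3 set the spread at *Dlc1*: the log2 fold change of 2.52 had an adjusted p of 0.834, and without that library it was 4.31 with an adjusted p of 0.00375. A region inside *Raet1d*, a ligand of the natural killer receptor NKG2D, held 25.7, 18.6 and 10.0 in WT against 45.5, 53.6 and 86.7 in LKO livers, a log2 fold change of 1.77 with an adjusted p of 0.737. *Raet1d* had a similar log2 fold change of 1.90 in the *Ncor* line. The others lay near *5330417C22Rik*, *Gm5921*, *Cdc42ep5*, *Dlg1*, which encodes a scaffold of cell junctions, and *Dnmt3a*, a DNA methyltransferase.

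The 10 largest log2 fold changes downward in the same set ran from -1.73 to -1.23. At 3 of them LKO replicate 1 stood near the WT livers and the other LKO livers did not. Near *Ankrd33* the normalised tags were 157, 86.6 and 107 in WT against 83.7, 9.95 and 12.4 in LKO livers. Near *Eml4*, a microtubule-binding protein, they were 132, 172 and 149 in WT against 116, 15.3 and 12.4 in LKO livers, and near *Slc11a2*, an iron transporter, 95.7, 61.3 and 93.4 in WT against 53.5, 16.8 and 14.98 in LKO livers. The adjusted p at *Eml4* was 0.834, and 0.0101 without LKO replicate 1. *Ankrd33* and *Slc11a2* lie on chromosome 15, and the 4 Mb around them, an interval chosen after the values were seen, were read. The interval also holds the region near *Aaas* (log2 fold change -1.25), another of the 10. In 3 of its 157 regions with at least 50 tags, LKO replicate 1 was at least 3-fold above the mean of the other LKO livers. These were the *Ankrd33* and *Slc11a2* regions and 1 near *1700030F18Rik*, so that the pattern did not extend over the interval.

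The other 7 regions were low in all LKO livers. The region near *Shmt1*, which encodes a serine hydroxymethyltransferase of one-carbon metabolism, held 137, 62.6 and 148 in WT against 37.6, 47.0 and 35.7 in LKO livers (log2 fold change -1.53, SE 0.29, adjusted p = 0.737). An intronic region of *Pdk1*, a pyruvate dehydrogenase kinase, held 47.3, 38.0 and 71.4 in WT against 12.4, 27.6 and 17.9 in LKO livers (log2 fold change -1.43, SE 0.32, adjusted p = 0.803). *Dmxl2*, *Fbxo46*, *Pgrmc2*, a haem-binding membrane protein, *Aaas*, a nuclear pore protein, and *Odf3l1* were the nearest genes of the others.

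**Figure D1:**
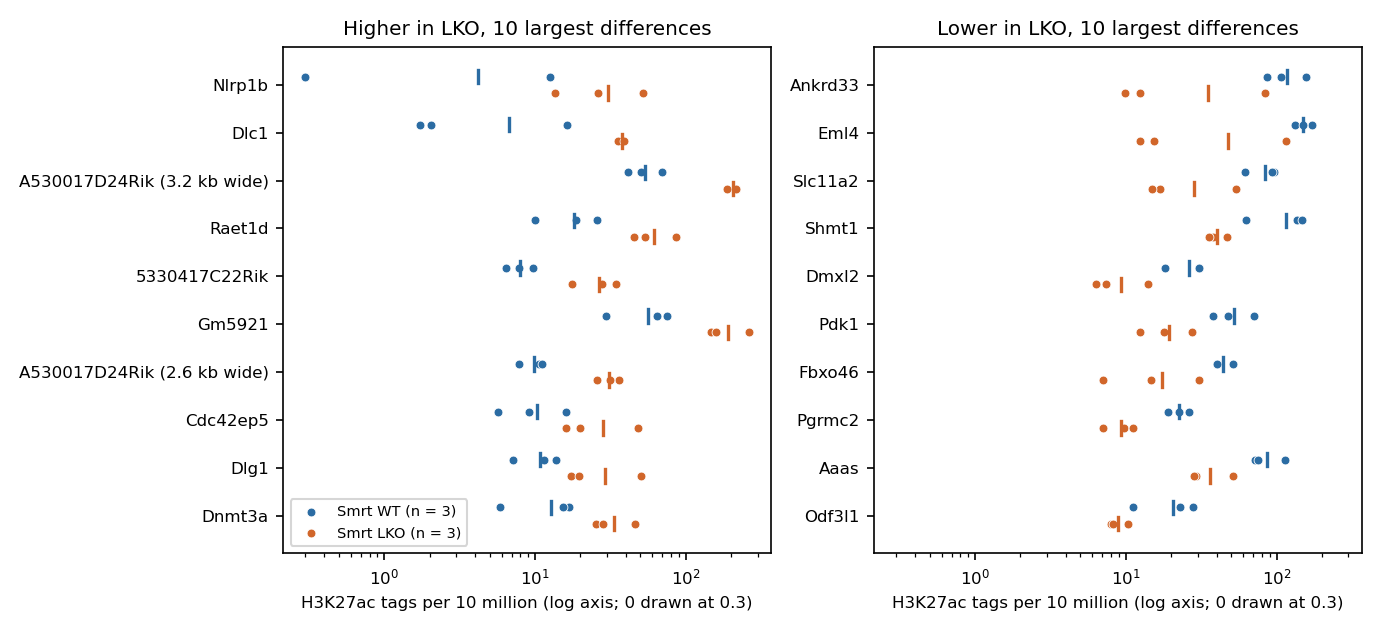
Normalised H3K27ac tags, per 10000000 total tags (log axis, with 0 drawn at 0.3) in each of the 3 *Smrt* WT and 3 *Smrt* LKO livers, for the 10 largest log2 fold changes in each direction among regions with at least 50 tags and groups that do not overlap. WT is blue and LKO orange, and vertical bars are group means; near *Ankrd33*, *Eml4* and *Slc11a2* a single LKO liver lies close to the WT livers, whereas both *A530017D24Rik* regions have compact groups.

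Ranked by p instead of by size, a choice made after the values were seen, the leading regions were of several kinds. Some were wide, well covered and only moderately different, and others had fewer tags and larger differences. A region near *Gadd45g*, with a mean of 26.2 tags, had a log2 fold change of 1.92. The region with the lowest p after *A530017D24Rik* lay in an intron near *Zfp287*, a zinc finger protein gene (chr11:62515064-62516093), with 23.3, 15.5 and 20.6 normalised tags in WT against 2.55, 2.30 and 4.03 in LKO livers. The mark was nearly absent from all 3 LKO livers, a log2 fold change of -2.73 (SE 0.30, adjusted p = 0.185). Its mean of 41.2 tags kept it out of the ranking by size. An intronic region of *Rab11fip4*, an effector of the vesicle GTPase RAB11, held 152, 151 and 135 in WT against 246, 254 and 247 in LKO livers (log2 fold change 0.77, SE 0.09, adjusted p = 0.324). A region near *Capg*, an actin-capping protein, held 399, 395 and 328 in WT against 593, 648 and 702 in LKO livers (log2 fold change 0.79, SE 0.10, adjusted p = 0.378). Both regions had groups that lay wide apart and a small spread. A pair of intronic regions of *Tmem154* had log2 fold changes of 0.82 and 0.84, and an intronic region of *Aox3*, an aldehyde oxidase of liver, had 0.65. Lower in every LKO liver were 2 regions at *Scd1*, the stearoyl-CoA desaturase that makes monounsaturated fatty acids. The one over the gene held 1123, 1186 and 1042 in WT against 810, 762 and 818 in LKO livers (log2 fold change -0.49, SE 0.08, adjusted p = 0.59). The one beside it, whose sequence is printed above, held 223, 300 and 245 in WT against 151, 127 and 149 in LKO livers (log2 fold change -0.85, SE 0.13, adjusted p = 0.59).

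The power of the comparison was read from the fitted standard errors and depended on the tags of a region. In the 19900 regions with a mean under 30 tags the median standard error was 0.355 log2, and in the 7500 regions with 1000 tags or more it was 0.0886. At an unadjusted p of 0.05, the log2 fold change that would be found with 80% power was 1.11 in the first class, 0.76 from 30 to 100 tags, 0.56 from 100 to 300, 0.39 from 300 to 1000 and 0.28 above. At a p of 0.001 these limits were 2.07, 1.41, 1.05, 0.73 and 0.52. A region that stands alone has to reach a p of 7.27e-07 to pass the adjusted p over 68800 regions, for which the limits were 4.88, 3.34, 2.47, 1.71 and 1.22. The *A530017D24Rik* region, with a mean of 477 tags, was above the limit of its class and missed the adjusted p. That limit rests on the median standard error of the class, 0.125. The region's own standard error was larger, at 0.18, so that the limit did not apply to it. The region over *Scd1*, with a log2 fold change of -0.49, was below the limit of its class.

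The same intervals bound what the data could have missed. The 95% interval of the log2 fold change lay within 1 log2 of 0 in 51718 of 68800 regions (75.2%). It did so in 99.1% of regions with 1000 tags or more, 96.8% from 300 to 1000, 91.9% from 100 to 300, 80.9% from 30 to 100 and 38.2% under 30 tags. A difference of 1 log2 was thus outside the interval at most well-covered regions, and not at most regions of low coverage. Of 956 regions whose log2 fold change reached 1 in either direction, 137 had a mean of at least 50 tags.

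**Figure D2:**
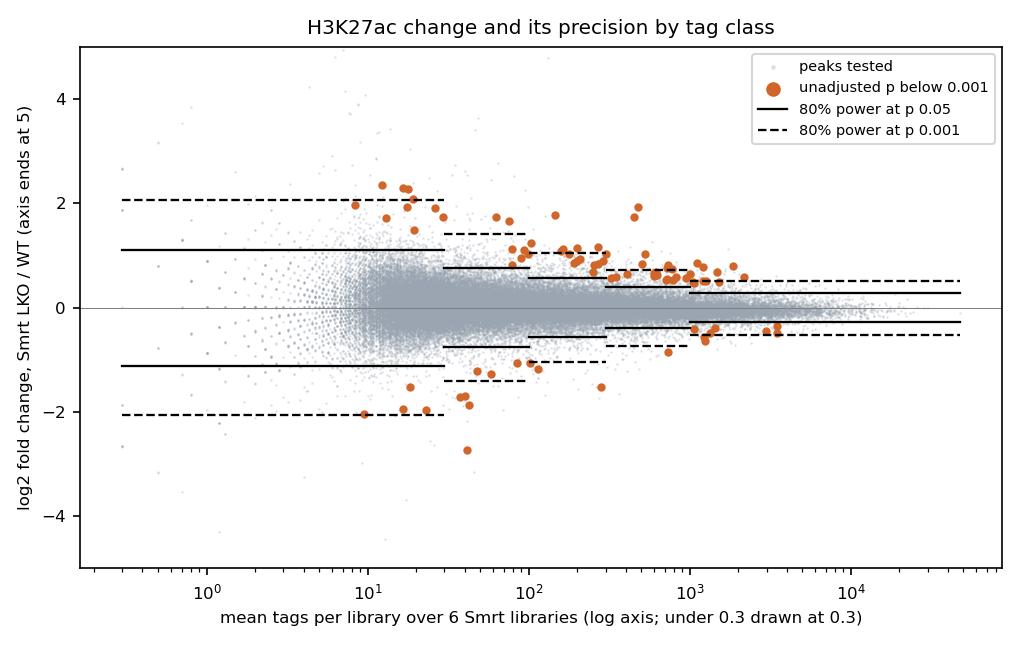
Log2 fold change of H3K27ac (*Smrt* LKO over WT) of each region against its mean tags over the 6 libraries (log axis), with the 85 regions at an unadjusted p below 0.001 as large points. Lines show the log2 fold change found with 80% power at a p of 0.05 (solid) and 0.001 (dashed) in 5 tag classes; they narrow from 2.07 to 0.52 at a p of 0.001, and 6 regions lie beyond the axis.

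Tags of all regions overlapping 10 kb on either side of a TSS were summed per gene for 18172 genes. Only *A530017D24Rik* passed the adjusted p (1 gene, 0.0055% called). Its sum rose from 58.4, 79.99 and 52.6 normalised tags in WT to 242, 251 and 220 in LKO livers, a log2 fold change of 1.90 (SE 0.16) and an adjusted p of 0.0378. The call was lost without WT replicate 1 (adjusted p = 0.409), WT replicate 3 (0.0722), LKO replicate 1 (0.187), LKO replicate 2 (0.444) or LKO replicate 3 (0.143), and with regions within 1 kb of the TSS only (0.349). The log2 fold change was between 1.65 and 2.10 under all alternatives run, and DESeq2 called 52 genes (0.286%), this gene among them. The sum rests on the 2 *A530017D24Rik* regions described above. The wider of these also entered the sum of *Ulk2*, which starts within 10 kb of it. *Ulk2* held 498, 507 and 417 in WT against 762, 736 and 721 in LKO livers (log2 fold change 0.64, SE 0.08, adjusted p = 0.316).

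At an unadjusted p below 0.05, 1405 sums (7.73%) divided into 326 (1.79%) higher and 1079 (5.94%) lower in LKO livers, and 62.4% of all sums had a log2 fold change below 0. This split depended on the scaling: with TMM the split was 607 to 438 and with DESeq2 632 to 396, with 50.7% and 50.2% of sums below 0. Relative to the median of -0.04, few sums moved far, and 59 of 18172 had a log2 fold change of at least 1 in size. At 1000 tags or more, where 9171 genes lay, a log2 fold change of 0.24 would be found with 80% power at a p of 0.05 and one of 0.47 at 0.001.

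Groups did not overlap in 15.5% of all sums (2.83% upward and 12.7% downward). Among these, the largest upward sums with a mean of at least 100 tags after *A530017D24Rik* were those of *Raet1d* (1.77) and *Gm17193* (1.14). *Adra2a*, the alpha-2A adrenergic receptor, held 32.1, 33.1 and 12.6 in WT against 52.9, 37.3 and 60.2 in LKO livers (log2 fold change 0.94, adjusted p = 0.629, and 0.62 without WT replicate 3), and *Serpina7*, thyroxine-binding globulin, had 0.71. Downward in the same set, *Barhl1*, a homeobox gene, was the largest, with 49.9, 42.9 and 36.8 in WT against 16.98, 23.2 and 16.7 in LKO livers (log2 fold change -1.18, SE 0.19, adjusted p = 0.598). *Bhlhe41*, a repressor of the circadian clock, held 174, 228 and 372 in WT against 138, 143 and 111 in LKO livers (log2 fold change -0.98), with WT replicate 3 the highest and a log2 fold change of -0.62 without it. *Cyp26b1*, which degrades retinoic acid, held 197, 157 and 207 in WT against 54.3, 126 and 109 in LKO livers (log2 fold change -0.95, adjusted p = 0.629).

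*Ncor1*, which encodes NCOR, had 853, 894 and 837 at its promoter in WT against 820, 825 and 882 in LKO livers, which overlapped. An intronic region of *Ncor1* (chr11:62249897-62257372) held 90.2, 81.5 and 175 in WT against 45.3, 59.96 and 52.7 in LKO livers, a log2 fold change of -1.13 (SE 0.28, adjusted p = 0.834) in which WT replicate 3 was the highest, and -0.70 without that library.

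Among the other subunits, *Tbl1xr1*, which encodes TBLR1, had a sum of 1420, 1575 and 1260 in WT against 1567, 1781 and 1973 in LKO livers, with overlapping groups and a log2 fold change of 0.32. A single region near *Tbl1xr1* (chr3:21853877-21864975), chosen after its values were seen, had groups that did not overlap and a log2 fold change of 0.68 (adjusted p = 0.717 in edgeR's quasi-likelihood test, 0.0229 in DESeq2). *Hdac3* (-0.12), *Gps2* (-0.12), *Ncor1* (-0.11) and *Tbl1x* (0.02) had log2 fold changes near that of the median gene. None of these genes passed the adjusted p.

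Gene lists of liver pathways and cell types were read by their counts and medians beside those of all sums, for which the median log2 fold change was -0.04 and the shares at an unadjusted p below 0.05 were 1.79% higher and 5.94% lower. No gene of the 25 lists passed the adjusted p. For PPARα targets, genes of fatty acid oxidation that the receptor switches on in fasting, 35 sums had a median of 0.02, with 3 higher and 0 lower at a p below 0.05. Of the 35 sums 20 lay above and 15 below 0, with log2 fold changes from -0.42 to 0.66. *Acot1*, an acyl-CoA thioesterase, held 242, 304 and 189 normalised tags in WT against 344, 400 and 415 in LKO livers (log2 fold change 0.66, SE 0.16, adjusted p = 0.629). *Cd36*, a fatty acid transporter, held 346, 342 and 416 in WT against 515, 645 and 416 in LKO livers, where the lowest LKO liver stood at the level of the highest WT liver. *Acadm*, the medium-chain acyl-CoA dehydrogenase, had a log2 fold change of 0.24 and *Fgf21*, the fasting hormone, one of 0.11 with overlapping groups. Without WT replicate 3 the PPARα list had a median of 0.07, with 7 higher and 0 lower, and it also had 7 higher without LKO replicate 1 and 5 with TMM. It had 3 higher and 1 lower without WT replicate 1, and 3 higher and 2 lower without LKO replicate 2. The median ran from -0.005 to 0.07 under the alternatives.

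Lipogenic genes lay mostly below the WT level. Of 16 sums 15 had a negative log2 fold change, with a median of -0.20, and 8 were lower and 0 higher at a p below 0.05. *Scd1* held 1348, 1488 and 1290 in WT against 963, 891 and 968 in LKO livers (log2 fold change -0.55, SE 0.07, adjusted p = 0.316). *Fasn*, fatty acid synthase, held 2259, 1815 and 2053 in WT against 1540, 1633 and 1503 in LKO livers, a log2 fold change of -0.39. *Acaca*, acetyl-CoA carboxylase, held 2410, 1886 and 2065 in WT against 1688, 1474 and 1604 in LKO livers, a log2 fold change of -0.42. In each of these 3 genes all LKO livers were below all WT livers. *Srebf1*, the transcription factor that drives this pathway, held 2718, 2694 and 2713 in WT against 2203, 2294 and 2231 in LKO livers, with little spread in either group and a log2 fold change of -0.27 (SE 0.05, adjusted p = 0.629). The list's median stayed between -0.28 and -0.16 under the alternatives, and it was -0.28 without WT replicate 3.

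Genes of cholesterol synthesis showed the same sign. All 23 sums with tags were below 0, with a median of -0.18, 9 lower and 0 higher at a p below 0.05; with TMM or DESeq2 20 of 23 were below 0. *Hsd17b7*, an enzyme of the pathway, held 219, 167 and 244 in WT against 135, 145 and 141 in LKO livers (log2 fold change -0.58, SE 0.14, adjusted p = 0.629). The list had 5 lower sums with TMM and 6 with DESeq2. A library left out gave from 4 lower sums (without WT replicate 1) to 14 (without WT replicate 2), with 5 without WT replicate 3, LKO replicate 1 or LKO replicate 2, and the median stayed between -0.26 and -0.13.

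Circadian clock genes had a median of -0.12 over 18 sums, with 7 lower and 0 higher at a p below 0.05, and WT replicate 3 was the highest or lowest library at several. At *Per3*, a clock repressor, it held 524 normalised tags against 262 and 276 in the other WT livers, while LKO livers held 228, 251 and 213, and the log2 fold change of -0.62 was -0.22 without it. At *Npas2*, an activator of the clock, it held 53.7 against 290 and 286, and LKO livers held 183, 252 and 389. *Nr1d2*, the nuclear receptor REV-ERB beta, separated the groups with a small spread, at 804, 818 and 875 in WT against 708, 727 and 638 in LKO livers (log2 fold change -0.27, SE 0.07, adjusted p = 0.629). *Dbp*, a clock output gene, and *Cry2*, a repressor, had log2 fold changes of -0.32 and -0.38. The list had 3 lower sums with TMM, 4 without LKO replicate 1 or LKO replicate 3 and 5 without WT replicate 3, and its median stayed between -0.15 and -0.09 under the alternatives.

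Acute-phase genes had 4 higher and 2 lower sums of 20, of which 11 genes share regions with another member, and *Saa3*, a serum amyloid gene, had a log2 fold change of 0.38. Male-biased liver genes had a median of -0.19 over 16 sums with 2 lower, among them *Cyp7b1*, an oxysterol hydroxylase, and without WT replicate 3 the median was -0.25 with 5 lower. This list had 1 lower with TMM and without WT replicate 2 or LKO replicate 3, and 1 lower and 1 higher without WT replicate 1. Its median ran from -0.25 to -0.09 under the alternatives. Lists of CAR and PXR targets, inflammation and the interferon response had 0 sums at a p below 0.05 in either direction. Bile acid, glucose, thyroid hormone, retinoid, LXR, immediate early, female-biased and hepatocyte identity lists had between 0 and 2 in each direction. Of 5 sex-linked genes 1 had tags, and of 6 fetal genes 2. Markers of other liver cells did not reach a p below 0.05 in any of 5 lists. Summed normalised tags over macrophage markers were 3287 to 4682 in WT against 3862 to 5012 in LKO livers, and over cholangiocyte markers 225 to 407 and 396 to 443. The 5 cholangiocyte markers with tags had a median log2 fold change of 0.41, which was 0.20 without WT replicate 3 and 0.09 without LKO replicate 2, and the 12 macrophage markers one of 0.08. Endothelial, stellate and lymphocyte markers likewise had overlapping sums. Hepatocyte identity genes, which mark the main cell type of liver, held 49209 to 53007 in WT against 50245 to 52625 in LKO livers, so the label liver matched the mark.

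**Figure D3:**
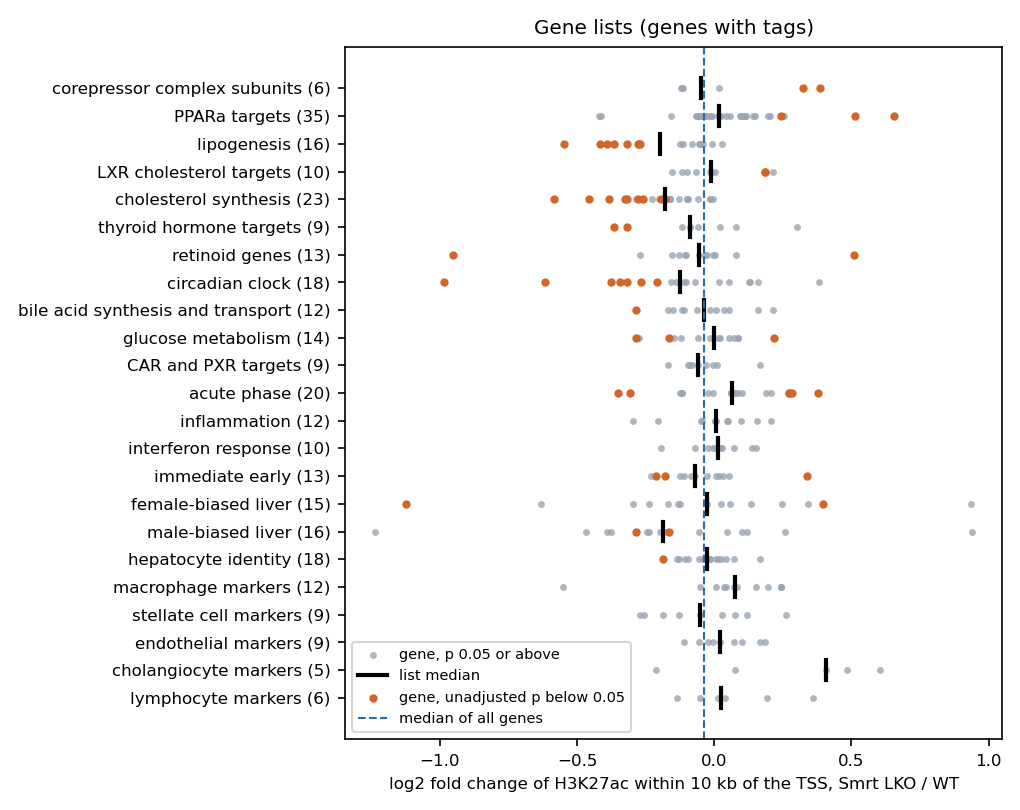
Log2 fold change (*Smrt* LKO over WT) of H3K27ac summed within 10 kb of the TSS, for each gene of the lists with at least 5 genes with tags; a black bar is the list's median, orange points have an unadjusted p below 0.05 and the dashed line is the median of all genes. Lipogenesis and cholesterol synthesis lie to the negative side with medians of -0.20 and -0.18, against -0.04 for all genes.

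At the PPARα target genes *Pdk4*, a pyruvate dehydrogenase kinase, and *Cyp4a14*, a fatty acid omega-hydroxylase, the *Smrt* groups overlapped. The *Pdk4* promoter region (chr6:5443797-5449023) held 343, 391 and 288 in WT against 321, 379 and 404 in LKO livers, a log2 fold change of 0.11 with a 95% interval from -0.18 to 0.40. Its intronic region (chr6:5434569-5437767) had 0.12 with an interval from -0.34 to 0.58. The upstream region (chr6:5457610-5460907) held 89.6, 121 and 104 in WT against 109, 156 and 166 in LKO livers (log2 fold change 0.45, 95% interval from 0.06 to 0.85, adjusted p = 0.834), with overlapping groups and the 1 unadjusted p below 0.05 among 4 *Pdk4* regions. The *Cyp4a14* promoter region (chr4:115164824-115173024) held 489, 583 and 468 in WT against 470, 622 and 622 in LKO livers, a log2 fold change of 0.15 with an interval from -0.13 to 0.44. At *Cyp4a10*, its neighbour of the same family, the region over the promoter (chr4:115184759-115195511) had -0.03 with an interval from -0.31 to 0.25. A difference of 1 log2 was outside each of the intervals given.

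The *Ncor* line was measured in the same table, and the effects were compared by an interaction term over 68818 regions. The effects differed at 293 regions (0.426%), and at 227 of these the *Smrt* effect was the lower. At 264 of the 293, *Ncor* LKO and WT livers themselves differed at an adjusted p below 0.05, and the median size of the log2 fold change was 0.31 in the *Smrt* and 1.21 in the *Ncor* line. At the *Cyp4a10* region *Ncor* livers went from a mean of 301 to 722 normalised tags, while *Smrt* livers held 594 in WT and 582 in LKO. The difference in effect between the lines was -1.29 (adjusted p = 0.01), and the part of the unequal WT levels in it was not tested. At the *Pdk4* intron it was -1.55 (adjusted p = 0.0319), with a log2 fold change of 1.68 in the *Ncor* line from a WT mean of 30.1, against 70.8 in *Smrt* WT livers, and at the *Cyp4a14* promoter -1.05, which did not pass (adjusted p = 0.175). In the *Ncor* line 3.12% of regions and 2.61% of gene sums passed the adjusted p, and for gene sums the lines differed at 68 of 18178 (0.374%). Over the 1594 regions called higher in *Ncor* LKO livers the median *Smrt* log2 fold change was 0.06, with 123 higher and 80 lower at an unadjusted p below 0.05. Over the 551 called lower it was 0.01, with 44 higher and 29 lower. Of all 68800 regions, 2283 (3.32%) were higher and 1796 (2.61%) lower at that p. Both sets thus had larger shares in each direction than all regions, and the part of coverage in this was not tested.

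At 20 of the 293 regions the *Smrt* effect was the larger in size. The region near *Zfp287* held a mean of 16.4 in *Ncor* WT and 16.8 in *Ncor* LKO livers, and the lines differed by -2.77 (adjusted p = 0.00663). The *A530017D24Rik* region differed by 1.67 (adjusted p = 0.0191). *Dmxl2*, which encodes a regulator of vesicle acidification, had log2 fold changes of -1.50 in the *Smrt* and 1.43 in the *Ncor* line (difference -2.92, adjusted p = 0.0232), and *Pgrmc2* had -1.27 and 1.26 (difference -2.53, adjusted p = 0.0126). The 2 effects had opposite signs at 259 of the 293 regions, which were selected for this difference, and these included *Dmxl2*, *Pgrmc2* and *Scd1*, whose region over the gene had -0.49 in the *Smrt* and 0.76 in the *Ncor* line (difference -1.24, adjusted p = 0.0221).

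**Figure D4:**
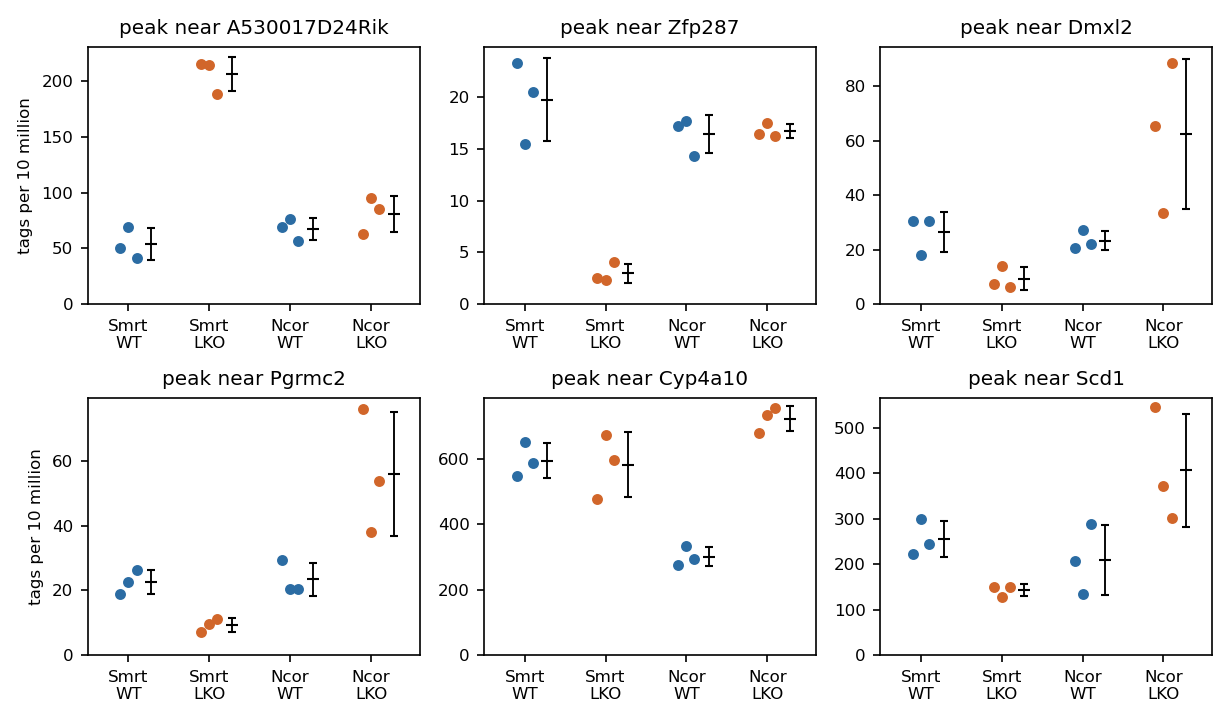
Normalised H3K27ac tags, per 10000000 total tags, in each WT and LKO liver of the *Smrt* and *Ncor* lines for 6 regions (for *Scd1* the one beside the gene), with WT in blue, LKO in orange and bars at the mean ± SD (n = 3). At *A530017D24Rik* and *Zfp287* the *Smrt* effect differed from the *Ncor* effect by 1.67 and -2.77, at *Cyp4a10* by -1.29, and at *Dmxl2*, *Pgrmc2* and *Scd1* the lines went opposite ways.

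Several of the lowest p-values lay close together on chromosome 11, and the interval from 61 to 63 Mb, chosen after the values were seen, was read on its own. It holds *Ncor1* and 65 regions with at least 50 tags. At an unadjusted p below 0.05 were 16 of them (24.6%, against 6.53% of all such regions), and below 0.001 were 4 (6.15%, against 0.162%). The 4 were both *A530017D24Rik* regions, 596 and 592 kb downstream of the *Ncor1* start, a region in *Specc1* 453 kb downstream and 1 near *Gm12278*. The *Specc1* region, in a gene for a coiled-coil protein, held 16.3, 16.7 and 17.7 in WT against 48.7, 31.9 and 40.03 in LKO livers (log2 fold change 1.25, SE 0.20, adjusted p = 0.59). Groups did not overlap in 21 regions (32.3%, against 12.6%). Neighbouring regions are not independent of each other. The interval was drawn around regions with low p-values, so that these shares were raised by the choice. In the *Ncor* line 8 of the 65 regions had an unadjusted p below 0.05. The lines differed at an adjusted p below 0.05 at 1 of the 65, the wider *A530017D24Rik* region. The *Zfp287* region also lies in the interval, but its mean of 41.2 tags kept it out of these counts. It was lower in *Smrt* LKO livers, and the lines differed there by -2.77 (adjusted p = 0.00663). Over the genome, 53 of 2179 windows of 1 Mb held at least 1 region with 50 tags or more and a p below 0.001, 9 held at least 2 and 4 held at least 3. One of the latter, from 21 Mb on chromosome 3, held the *Tbl1xr1* region. All 15 regions of this window with at least 50 tags had log2 fold changes above 0. Groups did not overlap in 8 of them (53.3%, against 12.6%). This window too was picked for its low p-values, which raised these shares.

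**Figure D5:**
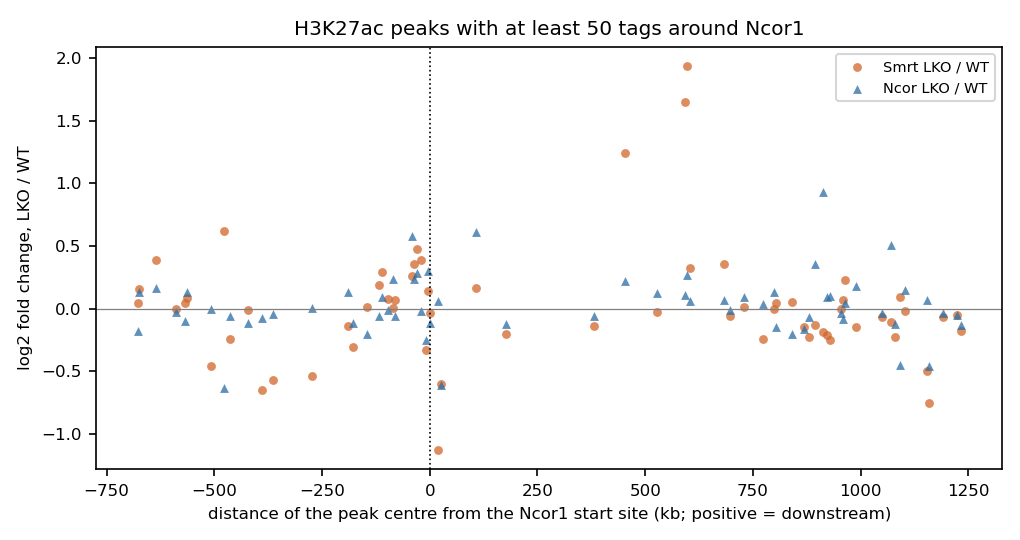
Log2 fold change of H3K27ac (LKO over WT) in the *Smrt* line (circles) and the *Ncor* line (triangles) against distance in kb from the *Ncor1* start, positive downstream, for regions with at least 50 tags. *Smrt* values of 1.94 and 1.65 stand at 596 and 592 kb, where the *Ncor* line has 0.26 and 0.11. The *Zfp287* region, which has fewer tags, is not drawn.

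Regions with and without a TSS split differently by direction. Of all 40775 regions with at least 50 tags, 1312 were higher and 1349 lower at an unadjusted p below 0.05 (6.53% in either direction). Among the 13276 that held a TSS, 191 were higher and 573 lower (5.75%). Among the 27499 without a TSS, 1121 were higher and 776 lower (6.9%). With TMM the counts were 207 to 538 and 1171 to 733, and without WT replicate 3 162 to 511 and 1001 to 732. Regions overlapping an NCOR peak of WT liver reached that p in 8.49%, against 3.94% without one, and those overlapping a PPARα peak in 8.42%, against 3.46%. The overlapping regions were also better covered, with medians of 521 against 127 tags for NCOR and 496 against 118 for PPARα, and the part of coverage in these shares was not tested. A half-site as defined above was found in 28 of the 65 windows (43.1%) of regions with at least 50 tags and a p below 0.001, against 27.7% of all with that many tags, and 90.8% of those 65 windows were centred on an NCOR peak, against 62.9%. Over all regions, windows centred on an NCOR peak held a half-site in 33.2% and those centred on the region in 20.2%. The part of the centring and of coverage in the 43.1% was not tested.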

How the data were processed

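H3K27ac ChIP-seq libraries of *Smrt* and *Ncor* WT and LKO livers were used. Per the labels and the study's methods, the authors aligned reads to mm9 (Bowtie in the methods, Bowtie2 in the processing notes, versions not given) and used HOMER to merge peaks and deposited raw tag counts per region with each library's total. The deposited peak lists of NCOR, GPS2, PPARα, H3K4me3 and H3K27ac carry a HOMER score, which was not used beyond position. The sources differ on crosslinking, with formaldehyde alone or after DSG.

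Counts were fitted with edgeR 4.0.16 (R 4.3.3, quasi-likelihood) with the total tags as offset and no filter beyond 1 tag. p-values were adjusted over all rows by Benjamini-Hochberg and calls were made at 0.05. DESeq2 1.42.0 was an alternative. Levels are tags per 10000000 total tags. Gene sums took regions overlapping 10 kb around a TSS, so that 9765 of 33585 regions entered several genes. Power was read from fitted standard errors. Scripts were tested on simulated data. Regions and genes named were those past the adjusted p, the 10 largest differences in each direction with groups that did not overlap (means of at least 50 tags per region, 100 per gene), those at *Ncor1*, *Pdk4* and *Cyp4a14*, and list members. The regions and lists were chosen with earlier results of these data known. The ranking by p, the *Ulk2* sum, the intervals on chromosomes 11 and 15 and the scalings of the TSS split were chosen after seeing the values. 26225 genes were annotated, and 326 of 327 list entries matched. Some loci and list members are not reported here.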

Additional observations from a re-analysis of the deposited data

Results flagged for a closer look

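The results below differed between the *Smrt* and *Ncor* lines by a test of the difference itself, the *Smrt* minus the *Ncor* log2 fold change, at an adjusted p below 0.05 in edgeR. This held for 293 regions. Among the regions named above, the difference was -1.29 near *Cyp4a10*, -2.53 near *Pgrmc2*, 1.67 near *A530017D24Rik*, -2.92 near *Dmxl2*, -1.55 at the *Pdk4* intron and 2.97 near *Dlg1*, where log2 fold changes were 1.44 in the *Smrt* and -1.53 in the *Ncor* line. For gene sums the difference was 1.66 at *A530017D24Rik* and negative at the others. It was -1.28 at *Cyp4a10*, -0.93 at *Ehhadh*, a peroxisomal enzyme of fatty acid oxidation whose log2 fold changes were -0.05 and 0.87, and -0.86 at *Cyp2c55*, a cytochrome P450 gene. It was -1.34 at *Scd1*, -0.76 at *Acacb*, an acetyl-CoA carboxylase, and -0.71 at *Nr1d2*. *Trhde* and *Gm15723* rest on the same region, and both differed by -2.08.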

How the results depend on the processing

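The count of called regions, 0 in edgeR's quasi-likelihood test, was 68 with DESeq2, 90 with the likelihood ratio test, 2 with the spread shared over 12 libraries and 0 to 2 with a library left out. It was 0 with TMM, the count filter, the replicate block or regions listed in at least 2 libraries. The 1 called gene sum became 52 with DESeq2, 0 with the replicate block, 0 within 1 kb of the TSS and 0 to 1 with a library left out. The 293 regions that differed between the lines became 1236 with DESeq2, 69 with the replicate block and 51 to 372 with a library left out, with the lowest count without *Ncor* WT replicate 2. Counts also fell by more than 1.5 times without *Ncor* WT replicate 3 (111), *Ncor* LKO replicate 3 (140), *Smrt* WT replicate 1 (88), *Smrt* LKO replicate 1 (97) and *Smrt* LKO replicate 3 (83). The difference in the share of tags in regions, -1.16 percentage points, ran from -1.80 to -0.55 with a library left out. The median standard error of regions with at least 50 tags, 0.165, then ran from 0.168 to 0.194. The cause of these changes was not tested.

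Replicate numbers were not taken as pairs, since same-numbered WT and LKO livers deviated from their group means with correlations of -0.00, -0.21 and -0.17. The replicate block gave 0 called regions, as did the main fit, so that this count cannot decide on pairing. Depth limited the comparison most under 30 tags, where 38.2% of intervals lay within 1 log2 of 0.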
